A study of Mus musculus with 4 samples.

Results

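The immediate early genes were described in the liver of diet-induced obese (DIO) mice that had received GALP (galanin-like peptide, a hypothalamic neuropeptide) through the nose. The 10 genes were Fos, Fosb, Jun, Junb, Egr1, Atf3, Nr4a1, Ier2, Ier3 and Cyr61, which the files write as Ccn1. They were found by gene name among the 41174 non-control probes of an Agilent whole mouse genome array, and 12 probes carried their names. The 16 animals were male C57BL/6J mice bought at 8 weeks of age, kept on a high-fat diet (14 weeks) and weighing at least 40 g. Both groups were first acclimatized, according to the paper with intranasal saline once daily. This lasted 2 weeks by the labels and 1 week by the paper. Treated mice then received 1 nmol of porcine GALP in 2 µL once daily for 11 days, in saline with 5% α-cyclodextrin, and control mice received saline. The high-fat diet continued during treatment. GALP-treated mice were pooled by outcome, 4 that lost more weight (greater weight loss) and 4 that lost less (less weight loss), and the control was 1 pool of 8 saline-treated mice. The control pool was the other channel of every array, 2 arrays were run for each GALP pool with exchanged Cy3 and Cy5 labels, and all 4 lay on 1 slide. Each gene is given as the log2 ratio of GALP over control, so that a value below 0 means less RNA in the GALP pool.

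Immediate early genes are switched on within minutes of a stimulus, without new protein synthesis, mostly through the serum response factor (SRF) and the cAMP-responsive factor CREB. Many of their products are transcription factors that act on a second wave of genes, and both the RNA and the protein are short-lived. In the liver they respond to growth factors, feeding and fasting hormones, injury, and the handling of the tissue.

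Nr4a1, Cyr61 and Fos were lower with GALP on all 4 arrays, Atf3 was higher on all 4, and Jun was close to the control. The upstream sequences of these 5 genes are shown because members that moved in opposite directions can be compared there. Each is the run of 250 bases before the gene start in the RefSeq table (GRCm38.p6), 5′ to 3′ in the direction of the gene. Capitals mark the core of the cAMP response element (CRE core), TGACG on either strand, and the Egr site GCGNGGGCG on either strand. The Nr4a1 run lies at chr15:101266596-101266845, plus strand, that of Cyr61 at chr3:145649986-145650235, minus strand, that of Fos at chr12:85473640-85473889, plus strand, that of Atf3 at chr1:191183334-191183583, minus strand, and that of Jun at chr4:95052223-95052472, minus strand.
Nr4a1: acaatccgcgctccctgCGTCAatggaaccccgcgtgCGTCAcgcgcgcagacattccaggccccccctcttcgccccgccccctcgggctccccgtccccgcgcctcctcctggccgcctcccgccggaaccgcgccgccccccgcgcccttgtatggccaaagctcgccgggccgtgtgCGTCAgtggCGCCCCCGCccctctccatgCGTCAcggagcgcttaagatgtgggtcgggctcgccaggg
Cyr61: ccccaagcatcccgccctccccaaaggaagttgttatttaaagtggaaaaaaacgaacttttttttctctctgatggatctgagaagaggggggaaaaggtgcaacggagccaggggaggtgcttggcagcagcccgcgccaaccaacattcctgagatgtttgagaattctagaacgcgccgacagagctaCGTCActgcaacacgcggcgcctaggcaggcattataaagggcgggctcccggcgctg
Fos: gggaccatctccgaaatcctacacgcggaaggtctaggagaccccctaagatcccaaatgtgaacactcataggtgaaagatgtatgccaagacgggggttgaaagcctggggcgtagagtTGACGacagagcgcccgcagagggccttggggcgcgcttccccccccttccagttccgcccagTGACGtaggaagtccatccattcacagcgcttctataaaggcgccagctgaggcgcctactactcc
Atf3: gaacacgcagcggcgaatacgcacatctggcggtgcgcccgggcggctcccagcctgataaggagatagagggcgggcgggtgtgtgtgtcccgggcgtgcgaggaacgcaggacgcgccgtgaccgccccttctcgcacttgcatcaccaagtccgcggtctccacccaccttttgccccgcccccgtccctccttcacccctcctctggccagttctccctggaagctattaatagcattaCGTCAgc
Jun: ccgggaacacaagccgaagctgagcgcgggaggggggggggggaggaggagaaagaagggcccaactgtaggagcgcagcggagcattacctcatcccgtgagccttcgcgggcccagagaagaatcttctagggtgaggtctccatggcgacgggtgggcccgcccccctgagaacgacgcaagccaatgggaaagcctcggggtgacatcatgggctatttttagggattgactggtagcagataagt

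The Nr4a1 run held 4 CRE cores and an Egr site, the Fos run held 2 CRE cores, and the Cyr61 and Atf3 runs held 1 each. The Jun run held 0. The table held windows for 8 of the 10 genes, and in the whole window of the table, which also covers 50 bases after the start, 6 of these 8 genes had a CRE core (Nr4a1, Cyr61, Fos, Atf3, Fosb and Junb). The core was present in 20.8% of all 32841 windows of that length. It was thus present in genes that were lower and in a gene that was higher with GALP. The Egr site was found for Nr4a1 and Fosb and in 5.55% of all windows, and the TATA box letters TATAAA for Cyr61, Fos and Junb and in 13.6% of all windows. Counted from the start, the TATAAA match began at −25 for Cyr61 and −33 for Fos. For Junb it began at 1, which is not upstream. The full element TGACGTCA (1.79% of all windows), the AP-1 site TGANTCA (7.81%) and the CArG box bound by SRF (1.63%) were found for 0 of the 8 genes. A match is a match of letters within this window only.

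The p-value and fold thresholds of a call were those of the study's methods, and asking for them as below on every array was a choice made here. In its pathway results the paper lists Fos and Nr4a1 as decreased and Gadd45b as increased. A gene not called here can thus be among the paper's changed genes. A call needed 3 things, a p-value from the Feature Extraction software under 0.01 on each of the 4 arrays, 1 direction on all of them, and in both pools a fold above 1.5 or below 0.75. This p-value compares the labelled RNA of 1 array and not the treatments. By this rule 2 of the 10 genes were lower, Nr4a1 and Cyr61, and 0 were higher. Over all 41037 probes with a value on all arrays, 0.132% were called lower and 0.0585% higher, and 0.344% were called lower among the 15712 probes with signal, meaning that on every array 1 channel or both stood well above background. Lower on all 4 arrays were 3 genes (Nr4a1, Cyr61 and Fos), against 6.63% of all probes and 15.7% of the probes with signal. Higher on all 4 arrays was 1 gene (Atf3), against 5.33% of all probes and 11.4% of the probes with signal. Both GALP pools were set against the same control pool, so their ratios share its deviations. In bulk liver RNA, fewer cells of a type and less RNA per cell cannot be told apart. The median of the 10 genes was −0.07 on the log2 scale, against 0 over all probes.

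**Figure D1:**
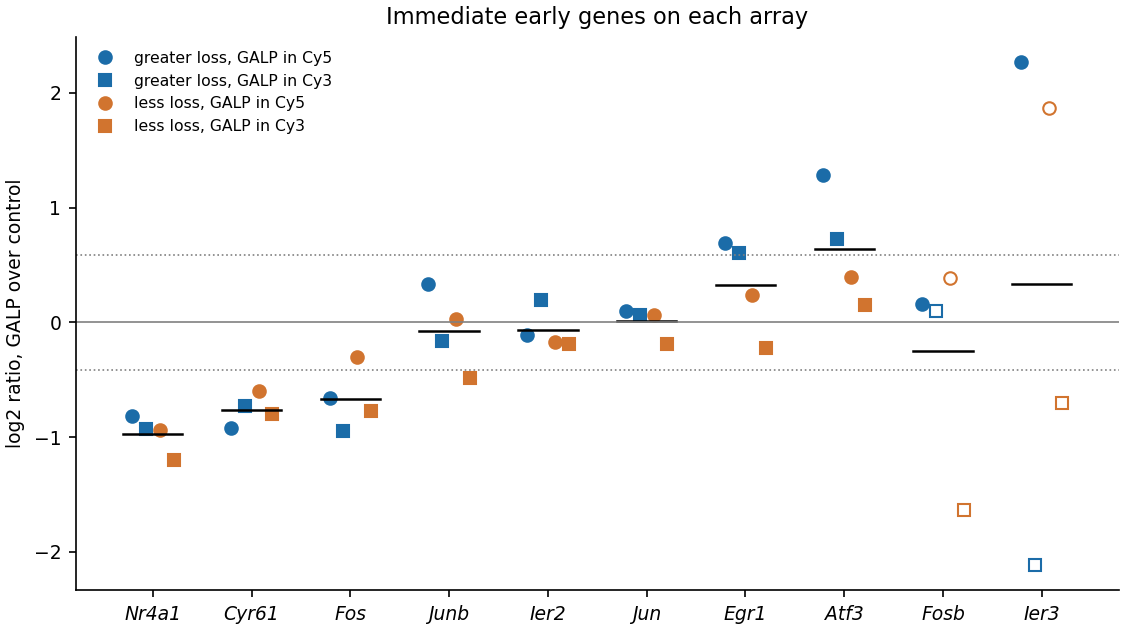
Log2 ratio of GALP over control (vertical axis) for each of the 10 immediate early genes on each of the 4 arrays, with circles for GALP in Cy5, squares for GALP in Cy3, blue for the greater and orange for the less weight loss pool, and a bar at the mean of the pools. Open symbols mark arrays on which neither channel was well above background, and dotted lines mark the folds of 1.5 and 0.75. Nr4a1, Cyr61 and Fos lie below 0 on every array, and the sign of Ier3 follows the dye.

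The test of treatment used limma on the log2 ratios of the 2 GALP pools against 0, with Benjamini-Hochberg adjustment over 41037 probes and 1 residual degree of freedom. No gene passed an adjusted p of 0.05, nor did any probe on the array (0 probes, or 0%). At an unadjusted limma p under 0.05 stood 2 of the 10 genes, Nr4a1 and Cyr61, against 11.6% of all probes. These p-values measure only the spread between 2 pools, each of 4 mice. Precision is limited by there being only 4 arrays.

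Nr4a1, an orphan nuclear receptor that is induced by cAMP and glucagon in the liver and acts on genes of glucose production, was the lowest of the 10 genes. Its log2 ratio was −0.82 and −0.92 in the greater weight loss pool, and −0.94 and −1.20 in the less weight loss pool. All 4 values lay past the fold threshold. The processed signal of the GALP channel was 295 to 497 and that of the control channel 678 to 876, without overlap, and both channels were well above background on every array. The mean ratio was −0.97 ± 0.14 (SD, n = 2 pools), which is a fold of 0.511. The adjusted p of limma was 0.377. The pools differed by −0.20 (less minus greater weight loss) and by 0.019 with normexp and loess, while the dye orientations of 1 pool differed by 0.11 and 0.26. The probe lies on chromosome 15 at 101105071 to 101105130 (mm9).

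Cyr61, a secreted matrix protein of the CCN family that binds integrins and is also a target of the coactivator Yap, was the other gene called lower. On the arrays it was −0.92 and −0.73 with greater weight loss, and −0.60 and −0.80 with less. The GALP signal was 171 to 226 and the control signal 282 to 429, so that the channels did not overlap. The mean ratio was −0.76 ± 0.09 (SD, n = 2 pools), a fold of 0.590, with an adjusted p of 0.374 by limma. The pools differed by 0.13, less than the dye orientations of either pool (−0.19 and 0.20). Feature Extraction p-values ran from 5.6e-05 to 0.00688 over the 4 arrays. Normexp background correction, with an offset of 50 added to both channels, and loess were used as an alternative. An added offset draws the ratios of dim probes toward 0, and its part in the values was not tested. There the mean of Cyr61 was −0.29 and it was no longer called. The mean of Nr4a1 was −0.46 and it was still called, with an adjusted p of 0.0371 by limma. These calls kept the Feature Extraction p-values of the main processing, so only direction and fold were asked anew.

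**Figure D2:**
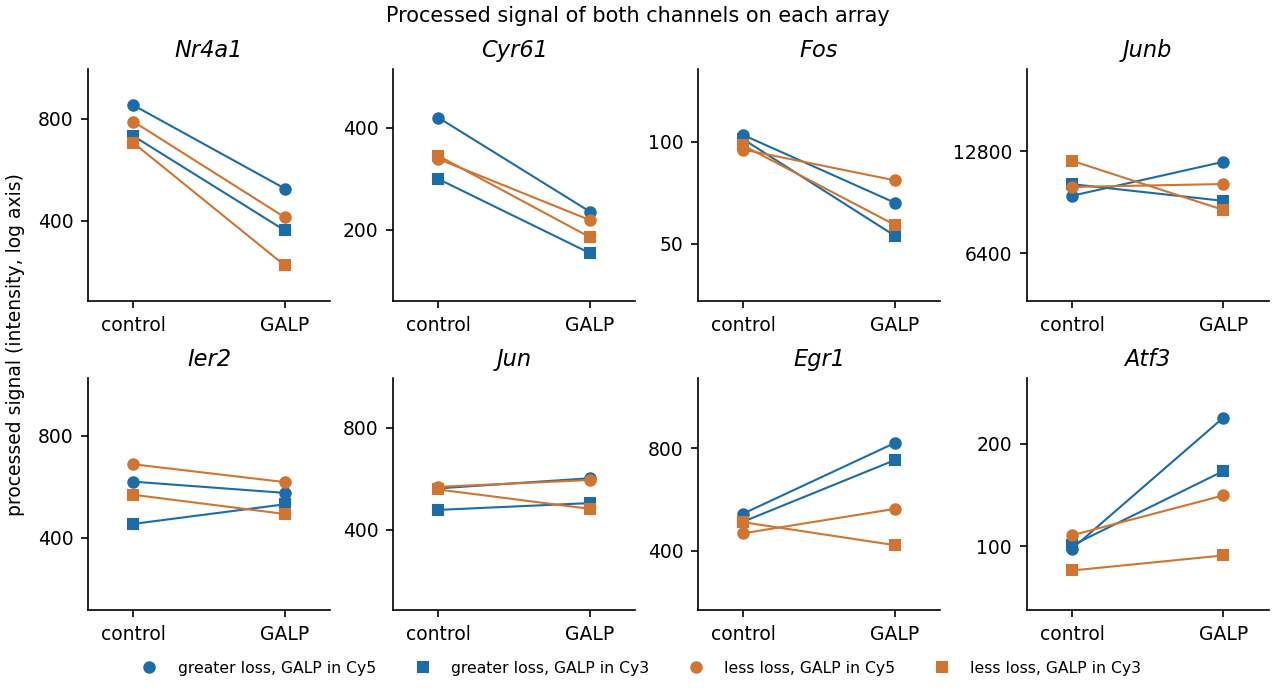
Processed signal (vertical log axis, intensity) of the control and the GALP channel, joined by a line for each of the 4 arrays, for the 8 immediate early genes with signal. Levels can be compared within a gene only. The lines fall on all arrays for Nr4a1, Cyr61 and Fos. For Atf3 they rise more steeply with greater (blue) than with less (orange) weight loss. For Egr1 both blue lines rise, while 1 orange line rises and 1 falls.

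Fos, which pairs with Jun proteins to form the AP-1 factor, was lower on all 4 arrays but was not called. Its probe was printed 10 times on each array, and its values are means over the spots without an outlier mark. The log2 ratio was −0.66 ± 0.10 (SD, 8 spots) and −0.94 ± 0.08 (8 spots) on the arrays of the greater weight loss pool. It was −0.30 ± 0.31 (10 spots) and −0.78 ± 0.30 (9 spots) on those of the less weight loss pool. The spots spread more widely in the second pool, where the highest spot reached 0.08 and the lowest −1.17. Fos was dim, with a GALP signal of 52.8 to 76.9 and a control signal of 94.7 to 105, which did not overlap. The mean was −0.67 ± 0.19 (SD, n = 2 pools), a fold of 0.628, with an adjusted p of 0.432 by limma. On 1 of the 4 arrays the median p-value of the spots from Feature Extraction fell under 0.01. When the p-value was not asked for, Fos was called lower together with Nr4a1 and Cyr61. With normexp and loess its mean was −0.12.

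Jun, the partner of Fos in AP-1, stayed near the control. The log2 ratio was 0.10, 0.07 and 0.07 on 3 arrays and −0.19 on the array of the less weight loss pool with GALP in Cy3. The SD over its 10 spots per array (9 on 1 array) was 0.05 to 0.11, and 0 of its spots had a Feature Extraction p-value under 0.01. The mean was 0.01 ± 0.10 (SD, n = 2 pools). GALP signals of 462 to 568 overlapped with control signals of 458 to 536. Fos was lower on every array, and Jun on 1 of them.

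**Figure D3:**
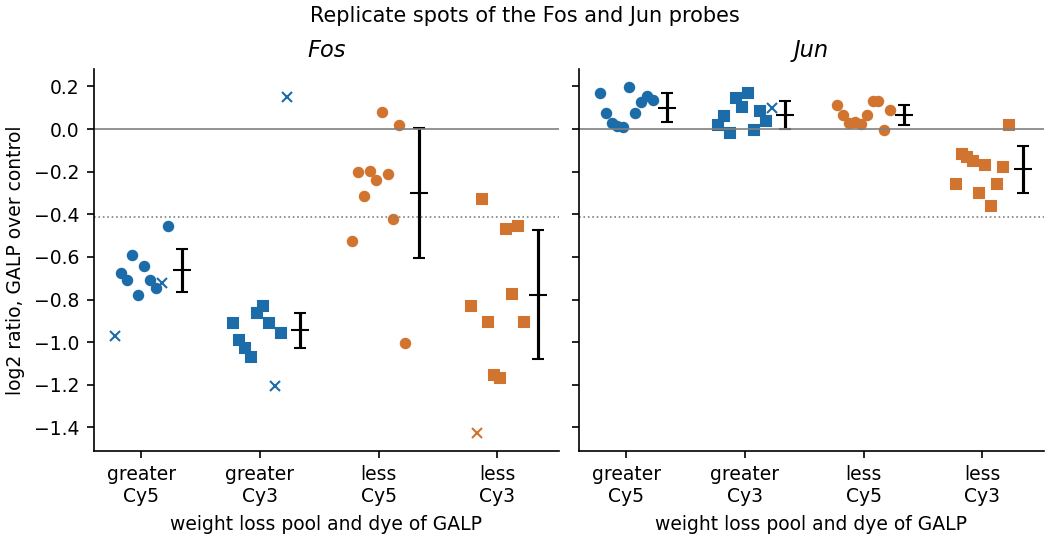
Log2 ratio of GALP over control (vertical axis) of the replicate spots of the Fos and Jun probes on each of the 4 arrays; crosses are spots with an outlier mark, and black bars give the mean ± SD of the others. Fos spots lie mostly below 0 and spread more widely in the less weight loss pool, and Jun spots lie near 0.

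Junb, a Jun relative that can restrain AP-1 activity, had 2 probes. The brighter one, with overlapping processed signals of 8580 to 11895 (GALP) and 9445 to 11983 (control), had log2 ratios of 0.33 and −0.16 with greater weight loss and of 0.03 and −0.48 with less. Both pools were lower with GALP in Cy3, by 0.50 and 0.51, and the mean of −0.07 ± 0.22 (SD, n = 2 pools) was smaller than that. The other probe, whose position overlaps the first, was lower on all 4 arrays, between −0.39 and −0.15. Its mean was −0.23 ± 0.06 (SD, n = 2 pools), with an adjusted p of 0.425 by limma. Neither probe was called.

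Egr1, a zinc finger transcription factor induced by growth factors and insulin, was higher in the greater weight loss pool. The log2 ratio there was 0.69 and 0.60, and in the less weight loss pool it was 0.24 and −0.22. The GALP signal was 830 and 739 with greater weight loss and 531 and 415 with less, against 450 to 514 in the control channel. The pool means were 0.65 and 0.01, so the fold was 1.57 in the first and 1.01 in the second. In the greater weight loss pool taken alone the rule called Egr1 higher, together with Atf3. These 2 of 10 genes stand against 0.297% of all probes called higher in that pool. With normexp and loess neither was called there, at a log2 ratio of 0.46 for Egr1 and 0.33 for Atf3. The difference between the pools was −0.64, larger than the gaps between dye orientations (0.09 and 0.46). It was −0.45 with GALP in Cy5 and −0.83 with GALP in Cy3. With 1 pool of each kind this difference was not tested. Over both pools the mean was 0.33 ± 0.45 (SD, n = 2), with an adjusted p of 0.702 by limma.

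Atf3, a stress-induced factor that mostly represses its targets, showed the same order of the pools with larger values. It reached log2 ratios of 1.29 and 0.73 with greater weight loss, and 0.39 and 0.15 with less. It was higher on all 4 arrays, and its values did not overlap between the pools. The GALP signal was 239 and 166 with greater weight loss and 141 and 93.8 with less, against 84.7 to 108 in the control channel. The fold was 2.01 in the greater and 1.21 in the less weight loss pool. The pools differed by −0.74, and the dye orientations by 0.56 and 0.24. The difference between the pools was −0.89 with GALP in Cy5 and −0.58 with GALP in Cy3, and −0.25 with normexp and loess. It was not tested. The mean of 0.64 ± 0.52 (SD, n = 2 pools) had an adjusted p of 0.702 by limma.

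In the less weight loss pool taken alone the rule called 0 of the 10 genes higher, against 0.234% of all probes. Lower were 2 genes in each pool taken alone, Nr4a1 and Cyr61 in both, against 0.395% of all probes with greater and 0.366% with less weight loss. A gene called over both pools is called in each alone by the form of the rule, so these 2 calls add no support. Among the 8 genes with signal, 6 had a higher ratio with greater than with less weight loss, the exceptions being Fos and Cyr61, against 53% of all probes with signal. The order of the pools turned for Nr4a1 with normexp and loess, and for Cyr61 with GALP in Cy3 only (−0.071, less minus greater). None of the 8 (0 genes) had both arrays of 1 pool on one side of 0 and both arrays of the other pool on the other side, against 5.81% of the probes with signal.

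**Figure D4:**
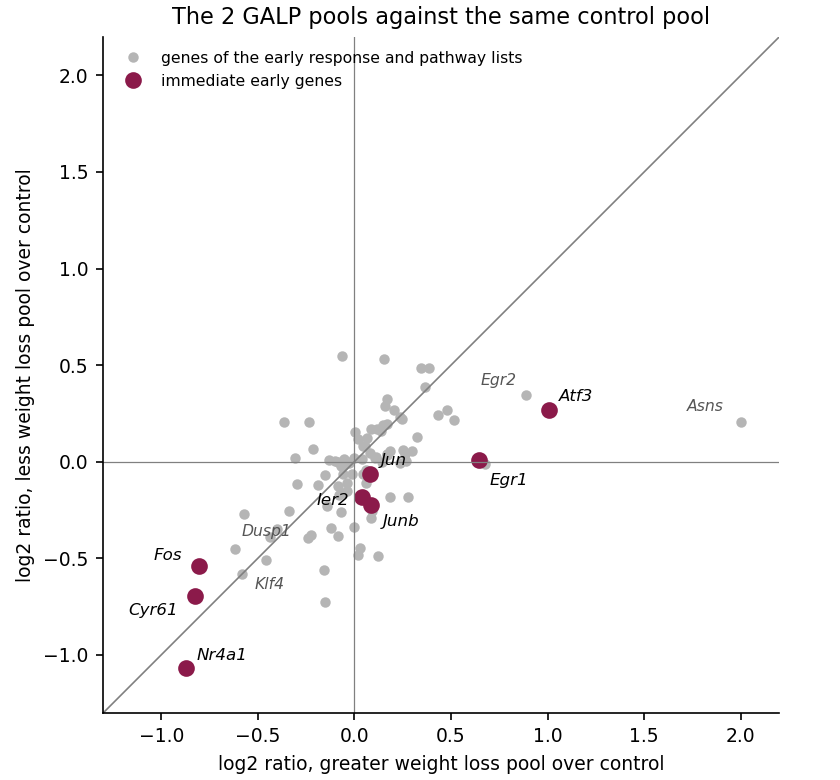
Log2 ratio of the greater weight loss pool over control (horizontal axis) against that of the less weight loss pool over control (vertical axis), for the 8 immediate early genes with signal (large points) and the 89 genes with signal of the early response and pathway lists (grey); the line marks equal ratios. Nr4a1, Cyr61 and Fos lie low in both pools, and Atf3 and Egr1 lie to the right of the line.

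Ier2, a nuclear protein of the early growth response, did not stand apart from the control. The ratio was −0.11 and 0.19 with greater weight loss and −0.17 and −0.19 with less. Its mean was −0.07 ± 0.16 (SD, n = 2 pools), and GALP signals of 471 to 585 lay within control signals of 440 to 660. A second probe named Ier2 was not well above background in any channel.

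Fosb and Ier3 were at the limit of detection. Fosb, another Fos protein, and Ier3, a stress-inducible regulator of cell survival, were well above background in the GALP channel of only 1 array (greater weight loss, GALP in Cy5) and in 0 control channels. For Ier3 the log2 ratio was 2.27 and 1.87 with GALP in Cy5 but −2.11 and −0.70 with GALP in Cy3, so its sign followed the dye in both pools. For Fosb it was 0.16, 0.09 and 0.39 on 3 arrays and −1.64 on the fourth. No fold is given for either gene.

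Wider lists were read for the other genes of the early response. The lists held 112 genes on the array, 89 with signal, and the rule called 0 of them lower and 0 higher. Lower on all 4 arrays were 14 and higher on all 4 were 15, and the median log2 ratio of the 112 genes was 0. Over all probes, 6.63% were lower and 5.33% higher on all 4 arrays, and over the probes with signal 15.7% and 11.4%. The same shares stand against the counts of the single lists. The lowest and highest gene of a list, here and below, are those among its genes with signal. Of the 19 other immediate early transcription factors, 5 were lower and 5 higher on all 4 arrays. Klf4, a zinc finger factor of epithelia and vessels, had the lowest mean of these, −0.58. Its log2 ratio was −0.54 and −0.62 in the greater and −0.42 and −0.75 in the less weight loss pool, with an adjusted p of 0.374 by limma. Egr2, the close relative of Egr1, had the highest, 0.62 ± 0.39 (SD, n = 2 pools). Egr2 was 0.90 and 0.88 with greater weight loss and 0.51 and 0.18 with less, the same order of pools as for Egr1.

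Nr4a2, Nr4a3 and Id1 were named after their values were seen. Nr4a2, the sister receptor of Nr4a1, was lower on all 4 arrays (−0.44, −0.47, −0.62 and −0.40), although none of its Feature Extraction p-values was under 0.01. Id1, an inhibitor of helix-loop-helix factors, was 0.70 and 0.66 with greater weight loss and 0.15 and −0.17 with less. In the greater weight loss pool alone the rule called 3 list genes higher (Asns, Egr2 and Id1), against 0.297% of all probes. It called 1 lower there (Dusp1), against 0.395%. In the less weight loss pool alone it called 0 higher and 0 lower, against 0.234% and 0.366% of all probes. The third receptor of the family, Nr4a3, was not a probe with signal.

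Dusp1, a phosphatase that switches off MAP kinases and is itself an early gene, was the lowest of the 12 MAP kinase phosphatases and Sprouty proteins. Its log2 ratio was −0.63 and −0.60 with greater weight loss and −0.35 and −0.55 with less, and Feature Extraction gave it a p-value under 0.01 on 3 of the 4 arrays. GALP signals of 1606 to 2249 lay below control signals of 2436 to 2859. Its mean was −0.53 ± 0.12 (SD, n = 2 pools), with an adjusted p of 0.411 by limma. Dusp2 was the highest of that list at 0.38 ± 0.15.

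**Figure D5:**
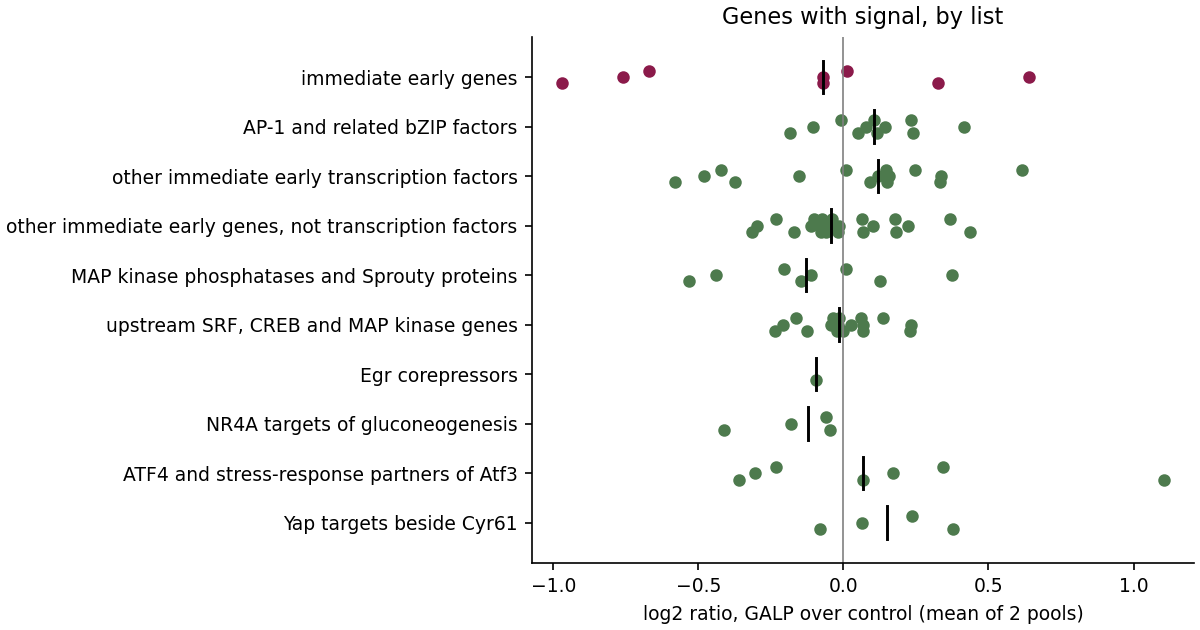
Log2 ratio of GALP over control (horizontal axis, mean of the 2 pools) of each gene with signal, 1 row per list, with a bar at the median of the row. The immediate early genes spread from −0.97 to 0.64, and the medians of all rows lie between −0.13 and 0.15.

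Of 12 AP-1 and related bZIP factors, 1 was lower and 1 higher on all 4 arrays. Those with signal ran from Jdp2 at −0.19 to Maff at 0.41. Among 28 early genes that are not transcription factors, 1 was lower and 3 higher on all 4 arrays. Those with signal ran from Zfp36, which destabilises cytokine mRNA, at −0.32 to Gadd45b at 0.43. Of 20 upstream genes (SRF, CREB and MAP kinase genes), 1 was lower and 1 higher on all 4 arrays. Those with signal ran from Crem at −0.23 to Mapk14 at 0.23.

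Genes that act with single members were read beside them. Among 5 genes of glucose handling on which NR4A receptors act, G6pc, which releases glucose from glucose 6-phosphate, had log2 ratios of −0.55, −0.33, −0.39 and −0.38 and the lowest mean of its list, −0.41 ± 0.03 (SD, n = 2 pools). The highest with signal was Fbp1 at −0.05. Among 8 genes of the ATF4 and stress response around Atf3, Asns, the asparagine synthetase, was 2.00 and 2.00 with greater weight loss and 0.31 and 0.11 with less. Its difference between the pools, −1.79, had the same sign as that of Atf3, while Ddit3, the lowest of the list, was −0.36 ± 0.29. Among 6 Yap targets other than Cyr61, 0 were lower and 2 higher on all 4 arrays. Those with signal ran from Amotl2 at −0.08 to Axl at 0.38. The Egr corepressor Nab1 was −0.09 ± 0.08, and Nab2 was not a probe with signal.

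The 5 genes whose 4 ratios lay nearest to the median profile of the 10 genes (0.13, −0.05, 0.05 and −0.59) were Med18, Spryd3, Gnl3, Ppie and a transcript without a symbol. Their Euclidean distances were 0.10 to 0.14, against a median of 0.69 over 11357 genes with signal. That profile lies near 0 on 3 arrays and low on the fourth, and it is unlike those of Nr4a1, Cyr61, Fos and Atf3. The dim Fosb and Ier3, at −1.64 and −0.70 on the fourth array, are part of it, so its shape rests partly on values at background.

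Markers of the cell types of the liver and of neighbouring tissues are given beside these results. Their counts on all 4 arrays stand against 15.7% of the probes with signal lower and 11.4% higher, and 6.63% and 5.33% of all probes. All 7 hepatocyte markers on the array had signal. Of these, 3 were higher and 1 lower on all 4 arrays, with a median log2 ratio of 0.05. Of 7 Kupffer cell markers 4 were higher and 0 lower on all 4 arrays (Marco, a scavenger receptor, was called higher at 0.87 ± 0.25, SD, n = 2 pools), with a median of 0.14 and a summed signal of 23885 to 29096 with GALP and 21009 to 23593 in the control. Of 8 stellate cell markers 5 were higher and 0 lower, with a median of 0.21 and a summed signal of 11609 to 15541 with GALP and 9489 to 13429 in the control. Of 7 lymphocyte markers, 3 of them at background in every channel, 1 was higher and 1 lower on all 4 arrays, and of 5 neutrophil markers 0 were. Of 8 endothelial markers, 1 was higher and 1 lower, and of 4 red blood cell markers, 3 were lower, with a median of −0.12. Of 8 markers of gastric epithelium, 3 had signal and 2 (Gkn2 and Tff1) were called lower. The summed signal of that list was 196 to 3801 with GALP and 2539 to 2967 in the control, with the low values in the greater weight loss pool. Of 5 adipocyte markers 2 had signal and 1 (Cidec, a lipid droplet protein) was higher on all 4 arrays, with a median of 0.06 for the list. The other with signal, Adipoq, was higher on both arrays with greater and lower on both with less weight loss. The summed signal of the list was 14660 to 17738 with GALP and 7832 to 12371 in the control. Cidec alone gave 14507 to 17621 and 7692 to 12240 of it. The part of these cells in the values of Nr4a1, Cyr61, Fos, Egr1 and Atf3 was not tested.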

How the data were processed

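The authors scanned the arrays and processed the images with Agilent Feature Extraction, which per the file headers (version 12.0.3.1) corrected the background and applied a LOWESS dye normalization, and the processed intensity of both channels is deposited. The submitters' processing notes name version 11.0.1.1. The deposited log10 ratio is that of processed Cy5 over Cy3, and the deposited p-value is that of the software's error model for the ratio. Here they were expressed as log2 with GALP as the numerator. The deposited series table held the same log10 ratios in that direction, except for the 29.6% to 35.3% of spots that the scanner files set to 0. Spots with an outlier mark (232 to 319 per array) were left out, and values were averaged over the spots of a probe, then over both arrays of a pool, which hold the same RNA. The replicate is the pool (n = 2). The paper describes 1 control pool, whose own spread enters no test, although the labels give its channel a weight loss group.

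The brightest probe stood for a gene. limma 3.58.1 in R 4.3.3 was used with Python 3.11.15. Each array held 43379 spots, of which 40.5% to 46.7% were well above background in a channel, and 0 were saturated. The accessions of 11 of the 12 probes were found in the RefSeq table, with the same names. Probe positions are mm9. The procedures were tested on simulated data without a shared control pool, with added changes larger than the mean ratio of any of the 10 genes. How often changes of the size seen here would be found was not tested. The genes named beside the 10 are those called by the rule, and the lowest and highest with signal of each list, with Nr4a2, Nr4a3 and Id1 added after their values were seen. The 10 genes, the lists and the tests were chosen with earlier results of these data known. The alternatives were normexp with loess, centring, the series table, outlier marks kept, a signal filter, the mean over probes, each dye alone, arrays or pools left out, other p rules and an intensity trend.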

Additional observations from a re-analysis of the deposited data

Results flagged for a closer look

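None of the 10 immediate early genes had both arrays of a pool on one side of 0 and both arrays of the other pool on the other side. Of the 131 list and marker genes with signal, 7 did, against 5.81% of all probes with signal. The lowest or highest of their lists among these 7 were 3 markers, and the difference between their pools was not tested. Tff2, a gastric mucosa peptide, had log2 ratios of −3.51 and −4.08 with greater weight loss and 0.68 and 0.68 with less, a difference of 4.47 (less minus greater). S100a8, a neutrophil protein, had 0.23 and 0.92 against −0.15 and −0.18, a difference of −0.74. Adipoq, the adipocyte hormone adiponectin, had 0.41 and 0.35 against −0.27 and −0.24, a difference of −0.63.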

How the results depend on the processing

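Nr4a1 and Cyr61 were called lower under 15 of the 16 alternatives, and with normexp and loess 1 gene (Nr4a1) was. Centring, the series table, outlier marks kept, the signal filter and the mean over probes left both ratios unchanged. The looser p rules could only add calls. On each array both genes met the p-value and fold thresholds, so using fewer arrays could not lose these calls. Only normexp (offset 50) with loess reprocessed the intensities, and its calls kept the Feature Extraction p-values. With no p rule Fos was called too (3 genes). The genes lower on every array used numbered 3 to 4, except 5 with GALP in Cy3 only (these 3 with Ier3 and Junb). Without any 1 array or pool the genes called lower stayed at 2. The median of the 10 genes, with the dim Fosb and Ier3 included, was −0.54 with GALP in Cy3 only and 0.13 with GALP in Cy5 only. It was −0.25 to 0.08 without 1 array or pool. The genes called higher in the greater weight loss pool alone (2, Egr1 and Atf3) were 0 with normexp and loess and 2 to 3 under the other alternatives, a count chosen after seeing the data. Genes near 0 or at background changed sign. Ier3 was −1.41, Jun −0.061 and Ier2 0.0021 with GALP in Cy3 only. Fosb was 0.27 and Junb 0.18 with GALP in Cy5 only. Without 1 array or pool, Ier3 ran from −0.76 to 1.43, Fosb from −0.75 to 0.26, Junb from −0.23 to 0.084, Jun from −0.061 to 0.083 and Ier2 from −0.18 to 0.041. Nr4a1 ranged from −1.07 to −0.46, Cyr61 from −0.82 to −0.29, Fos from −0.86 to −0.12, Atf3 from 0.21 to 1.01 and Egr1 from 0.01 to 0.65 over 15 alternatives, each with the same sign.

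Over all probes, limma found 42 higher and 53 lower with normexp and loess, and 1 lower among the probes with signal. The rule called 9 higher and 26 lower with normexp and loess, 134 and 140 with GALP in Cy5 only, 140 and 156 with GALP in Cy3 only, 53 and 167 with the p-value asked on at least 1 array of each pool, and 154 and 360 with no p rule. Without 1 array or pool it called 27 to 122 higher and 65 to 162 lower. Of the list genes, 1 (Gadd45b) was called higher with GALP in Cy5 only and 2 (Dusp1 and Klf4) lower with GALP in Cy3 only. Without 1 array or pool, 0 to 3 were called higher and 0 to 1 lower, and the median was 0 to 0.034. In these alternatives the cause was not tested. The pool as a random block with a dye term could not be fitted. No paired analysis was possible because each ratio is set against 0 and the replicate numbers mark dye orientations of the same extracts. Fosb and Ier3 were too dim for a fold.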
